A study of Mus musculus with 7 samples.

Results

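A promoter is the stretch of DNA around a gene's transcription start site (TSS), and it has to be free of tightly packed nucleosomes for the transcription machinery to assemble there. Promoters called open in only 1 of 2 tumour cell populations, Dll1+ and Dll1- cells, are described here. Rows of the 2 deposited peak lists that overlapped or touched were merged, and a region was taken as a member when all its rows came from 1 list and its midpoint lay within 1000 bp of a protein-coding TSS. Of 119215 merged regions, 16393 were promoter-proximal in this way. Of these, 517 (3.15%) were called in the Dll1+ list only, 1636 (9.98%) in the Dll1- list only, and the remaining 14240 in both lists. Members were thus chosen by the peak calls themselves, so these counts and the fold enrichments below are descriptions and were not tested.

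The lists came from ATAC-seq, an assay in which a transposase cuts open DNA and tags it for sequencing. All 7 samples carried the MMTV-PyMT transgene, in which a mammary tumour virus promoter drives the polyoma middle T oncoprotein in mammary epithelium, and a Dll1-mCherry reporter carried on a bacterial artificial chromosome (Py+Tg3+ in the sample names). Spontaneous mammary tumours were digested, cells with CD45, CD31 or Ter119 were sorted out, and the remainder was split by mCherry into Dll1+ cells (3 samples) and Dll1- cells (4 samples). The samples came from 4 tumours, 3 of which gave both groups. Each list pooled the samples of its group, so no value below has a spread between replicates. Dll1+ means that the reporter was on, and the sort left any cell type without those 3 surface proteins, fibroblasts included, in either group. In such bulk samples, fewer open cells and less open chromatin per cell cannot be told apart.

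Most mammalian promoters lie in CpG islands, which are GC-rich stretches that tend to be open in many cell types, whether or not the gene is transcribed. CpG-poor promoters are more often open in a few cell types only. Many genes have several alternative TSSs, and smaller open sites near a TSS can flank the main open promoter. Dll1 encodes a ligand of the Notch receptors, and in the mammary gland Notch signalling takes part in the choice between basal and luminal cell fates.

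The Dll1+ list was the shallower one. Background over the genome was 3.74 reads for Dll1+ and 7.20 reads for Dll1-, which differ by a factor of 1.93, and the median row held 43 reads against 61. Reads are those at a summit, recovered from the deposited fold enrichment and -log10 p. Fold enrichment is the reads at the summit over the local background, each plus 1. A promoter missing from the Dll1+ list was therefore missing at lower depth, whereas a promoter missing from the Dll1- list was missing at higher depth. For this reason the reads of a member are also given as scaled by 1.93 to the background of the list that lacked it.

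The sequences under the strongest members show the kind of DNA involved. The windows below reach 50 bases to each side of the summit on the GRCm38 plus strand, for the 5 members of each list with the highest fold whose gene had no promoter-proximal region in the other list and whose window touched no annotated exon of a protein-coding gene, leaving out 1 chromosome for which no sequence is shown. Capitals mark matches, on either strand, to any of 19 transcription factor consensus sequences that were searched. The first 5 windows were open in Dll1+ cells only.
Frem2 chr3:53657431-53657531: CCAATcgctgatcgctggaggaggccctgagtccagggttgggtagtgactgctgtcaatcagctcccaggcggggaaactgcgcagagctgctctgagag
Gm7298 chr6:121732804-121732904: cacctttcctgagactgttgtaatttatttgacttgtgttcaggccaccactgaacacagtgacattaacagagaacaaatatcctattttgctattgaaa
Gm6169 chr13:97099619-97099719: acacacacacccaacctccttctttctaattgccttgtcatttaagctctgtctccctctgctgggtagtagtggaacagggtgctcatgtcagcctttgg
Gm14698 chrX:68820626-68820726: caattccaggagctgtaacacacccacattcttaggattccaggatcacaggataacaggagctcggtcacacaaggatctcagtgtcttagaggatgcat
Tnnt3 chr7:142497943-142498043: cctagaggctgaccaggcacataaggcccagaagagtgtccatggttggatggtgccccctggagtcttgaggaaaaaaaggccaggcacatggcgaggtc
Of these 5 windows, the one at Frem2 held a match, a CCAAT box at its first bases, and the other 4 held none. Their GC content ran from 36.6% at Gm7298 to 61.4% at Frem2.

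The next 5 windows were open in Dll1- cells only.
1700025C18Rik chr2:165090824-165090924: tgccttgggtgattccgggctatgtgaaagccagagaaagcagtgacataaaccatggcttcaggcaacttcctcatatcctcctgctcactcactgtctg
Krtap2-4 chr11:99615120-99615220: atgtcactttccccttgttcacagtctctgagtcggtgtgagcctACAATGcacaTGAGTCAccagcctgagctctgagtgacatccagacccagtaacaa
Hmga1b chr11:120762466-120762566: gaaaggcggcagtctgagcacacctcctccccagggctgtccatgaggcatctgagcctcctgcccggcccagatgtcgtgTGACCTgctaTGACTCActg
Nrxn3 chr12:89812313-89812413: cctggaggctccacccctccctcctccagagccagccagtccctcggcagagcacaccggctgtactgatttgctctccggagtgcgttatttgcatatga
Zfp663 chr2:165361019-165361119: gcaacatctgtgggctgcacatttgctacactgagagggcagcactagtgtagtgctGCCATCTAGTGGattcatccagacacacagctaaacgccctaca
Of these 5 windows 3 held a match. The Krtap2-4 and Hmga1b windows each held the heptamer bound by AP-1 factors (TGACTCA or TGAGTCA), and the Zfp663 window held a match to the CTCF consensus. Krtap2-4 also held a SOX match and Hmga1b the nuclear receptor hexamer AGGTCA, present there as its reverse complement TGACCT. GC content ran from 50.5% at 1700025C18Rik and Krtap2-4 to 62.4% at Hmga1b.

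Members were weakly open beside shared promoters. The median fold was 3.17 in the 517 Dll1+ only members and 3.36 in the 1636 Dll1- only members, at median percentiles 15.9 and 25.1 of their own lists. Shared promoters had median folds of 11.0 (Dll1+) and 11.3 (Dll1-). The quartiles were 2.69 and 3.83 fold for Dll1+ only and 2.71 and 4.27 fold for Dll1- only members. Member reads had a median of 29 (from 11 to 142) for Dll1+ only and 41 (from 14 to 248) for Dll1- only. The regions were also narrow, with median widths of 273 and 311 bp against 916 bp for shared promoters.

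A one-list region did not always mean a closed promoter in the other population. A member was called accompanied when another promoter-proximal region of the same gene held rows of the other list, and sole when none did. Of the Dll1+ only members, 130 were sole (25.1%, 95% Wilson interval 21.6 to 29.1%) and 387 were accompanied. Of the Dll1- only members, 773 were sole (47.3%, 44.8 to 49.7%) and 863 were accompanied. These intervals cover counting error only. The nearest TSS itself lay inside a row of the other list for 241 Dll1+ only members (46.6%) and for 441 Dll1- only members (26.96%). The median gap from a member to the nearest row of the other list was 378 bp for Dll1+ only and 1780 bp for Dll1- only. The smallest gap was 5 bp in either direction, at Gngt2 (Dll1+ only) and Kcnk7 (Dll1- only), and gaps over 10000 bp were found for 11.0% and 24.6% of members. Requiring that no row of the other list overlap the 1000 bp around any TSS of the gene left 119 Dll1+ only and 757 Dll1- only members.

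The position relative to the TSS differed in the same sense. Midpoints lay within 250 bp of the TSS in 28.8% of Dll1+ only members (25.1 to 32.9%), 44.6% of Dll1- only members (42.2 to 47.0%) and 73.4% of shared promoters. More than 500 bp from the TSS lay 53.4% of Dll1+ only members, against 40.04% of Dll1- only members and 12.4% of shared promoters. Accordingly, 49.1% of Dll1+ only midpoints were in an intron, against 39.3% of Dll1- only and 24.8% of shared midpoints. Among sole members the 2 kinds were closer, with 52.3% (43.8 to 60.7%) and 63.3% (59.8 to 66.6%) within 250 bp. At the limit itself, the farthest Dll1+ only member lay 999 bp from the TSS of Efr3a (fold 4.22, 19 reads; 1 of 2 at this distance), and the first region left out lay 1002 bp from that of Lmbr1l (3.08, 58 reads). For Dll1- only, the limit fell between Khdrbs1 at 996 bp (2.69, 47 reads) and Cacng7 at 1003 bp (4.78, 41 reads; 1 of 4 at this distance).

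**Figure D1:**
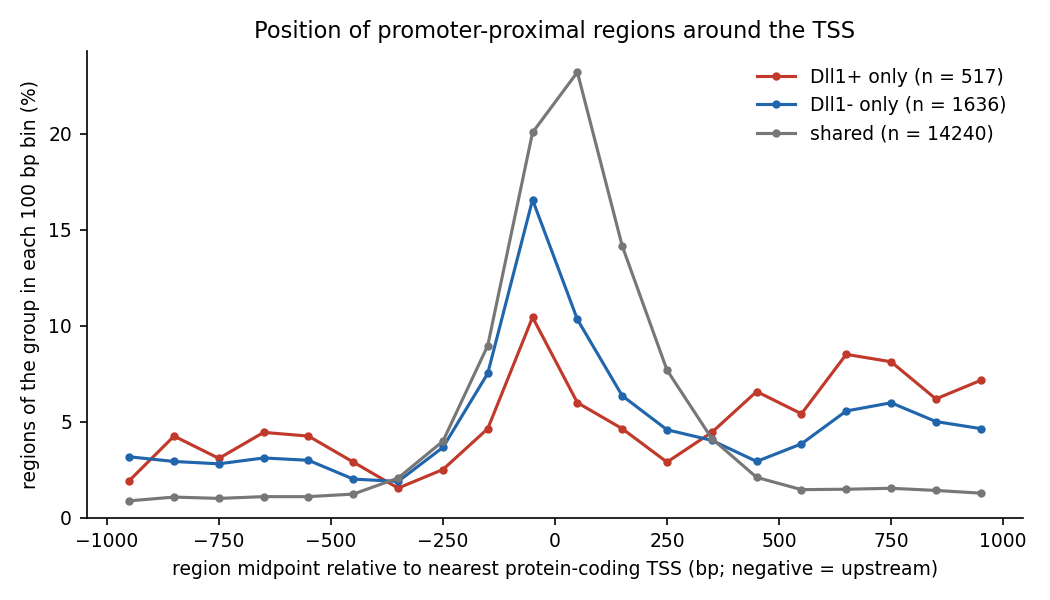
Percentage of promoter-proximal regions in each 100 bp bin of distance between region midpoint and nearest protein-coding TSS (negative values are upstream), for Dll1+ only (red, n = 517), Dll1- only (blue, n = 1636) and shared regions (grey, n = 14240). Shared regions peak at the TSS, the Dll1- only regions have a lower peak there, and the Dll1+ only regions have the lowest peak and the highest share 500 to 1000 bp downstream.

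The strongest sole promoters of Dll1+ cells were these. Hbq1b (chr11:32286828-32287099), a theta globin gene, was the first with a fold of 8.86 from 41 reads, 2 bp upstream of its TSS. Scaled to the background of the Dll1- list its 41 reads correspond to 79.0 reads, and the nearest Dll1- row was 18680 bp away. Cysltr2 (chr14:73048975-73049292), a receptor for cysteinyl leukotrienes, followed with a fold of 8.65 from 40 reads, 19 bp upstream of the TSS and 31394 bp from any Dll1- row. Frem2 (chr3:53656632-53657641), which encodes a protein of the basement membrane under epithelia, had a fold of 8.42 from 41 reads over a region of 1010 bp. All 3 regions covered the TSS, and no Dll1- row lay closer to any of them than the one near Hbq1b.

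Tnnt3, a fast muscle troponin T gene, had a fold of 6.96 from 32 reads. Cyp27b1, the enzyme that makes the active form of vitamin D, had a fold of 6.73 from 35 reads. For both, Dll1- rows lay close by, at gaps of 709 and 404 bp, and their midpoints were 834 bp upstream and 842 bp downstream of the TSS. Oas1g, an interferon-induced sensor of double-stranded RNA, had a fold of 6.33 from 29 reads, 73 bp upstream of its TSS. Its neighbour Oas1a was the strongest accompanied member, with a fold of 6.54 from 30 reads, 77 bp upstream. The genes of the Oas1 cluster are close copies, and reads could be split between them, so these values are uncertain.

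The other 6 of the first 12 were Gm7298 (8.02), Gm6169 (7.81), Gm14698 (7.60), Gm10073 (6.75), Gm14410 (6.75) and Cep295nl (6.54), with 30 to 37 reads each. Numbered Gm genes and Rik genes, which lack a settled name, made up 14.6% of sole Dll1+ only members (19 of 130, 9.56 to 21.7%), 4.66% of sole Dll1- only members (36 of 773, 3.38 to 6.38%) and 2.50% of shared promoters.

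The strongest sole promoters of Dll1- cells reached higher folds. Chrnb2 (chr3:89764311-89764920), a subunit of the neuronal nicotinic acetylcholine receptor, led with a fold of 11.95 from 97 reads, 7 bp upstream of its TSS. Scaled to the background of the Dll1+ list these are 50.4 reads, and the nearest Dll1+ row was 7547 bp away. Kcnab2, an accessory subunit of voltage-gated potassium channels, had a fold of 10.25 from 83 reads. Nrxn3, a presynaptic adhesion protein, was open with 81 reads and lay 332770 bp from the nearest Dll1+ row. Adgra1, an adhesion G protein-coupled receptor, had a fold of 8.59 from 76 reads.

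Mfng (fold 9.19 from 85 reads, 9 bp upstream of the TSS) encodes Manic fringe, a glycosyltransferase that changes how Notch receptors respond to their ligands. The nearest Dll1+ row lay 4747 bp from it. Further sole members among the first 12 were 1700025C18Rik (11.9), Krtap2-4 (10.5), a keratin-associated protein gene of hair, Hmga1b (10.25), Cyp2j9 (9.88), Zfp663 (9.70), Nepn (8.78) and Ccdc184 (8.78). Mfng was the nearest of the 12 to a row of the other list, whereas gaps among the first 12 of Dll1+ cells began at 404 bp (Cyp27b1).

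Accompanied members lay at genes with a further promoter-proximal region called in the other population. In Dll1+ cells the strongest after Oas1a were Pde4b (6.51), a cAMP phosphodiesterase, Rab11fip3 (6.33), an effector of Rab11 in vesicle recycling, Shroom4 (6.12), Hif3a (5.96), an alpha subunit of the hypoxia-inducible factors, and Tspan5 (5.91), a tetraspanin. The Tspan5 member lay 9 bp from a Dll1- row. In Dll1- cells they were Gpr35 (11.0), Nap1l1 (10.01), a nucleosome assembly protein, Gcnt1 (9.63), which branches O-glycans, Tcf4 (8.78) and Tbx18 (8.68), both transcription factors, and Lpin3 (8.42).

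The shared promoter nearest to an accompanied member, which the rule did not use, was compared between the lists by its percentile in each. It ranked higher in the Dll1+ list for 28.6% of the 367 shared companions of Dll1+ only members (24.2 to 33.4%) and for 33.2% of the 843 shared companions of Dll1- only members (30.1 to 36.5%). Over all 14240 shared promoters the figure was 30.55%, which both intervals hold. Companions had median folds of 10.1 (Dll1+) and 10.2 (Dll1-) beside Dll1+ only members, and 8.56 and 8.70 beside Dll1- only members. The 517 Dll1+ only members were nearest to 506 genes and the 1636 Dll1- only members to 1521 genes, and 55 genes had members of both kinds. Tspan8, a tetraspanin gene, had 3 Dll1+ only members, all sole, with folds of 3.11, 3.40 and 3.41 from 32 to 35 reads, and Mdga2 also had 3.

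Gene groups were then counted against the shares of all promoter-proximal regions, which were 3.15% for Dll1+ only and 9.98% for Dll1- only. Hox genes, which encode the homeobox factors that set position along the body axis, had the highest Dll1- only share among the groups of at least 15 regions. Of 19 promoter-proximal regions of Hox genes, 13 were Dll1- only (68.4%, 46.0 to 84.6%), 2 were Dll1+ only and 4 were shared. Dll1- only regions were called in 3 of the 4 clusters, at Hoxa4, Hoxa5, Hoxa10, Hoxa13, Hoxb1, Hoxb4, Hoxb5, Hoxc5, Hoxc10, Hoxc11 and Hoxc13. The Hoxc and Hoxb regions were all of this kind, 6 and 3 of them. The strongest were Hoxb1 (7.81 from 63 reads), Hoxc10 (5.73 from 46 reads), Hoxb4 (5.61 from 45 reads) and Hoxc13 (5.37 from 43 reads). Both Dll1+ only regions were in the Hoxd cluster, at Hoxd4 (3.59 from 16 reads) and Hoxd13 (3.45 from 17 reads), where Hoxd8 and Hoxd9 were shared. The Dll1- only Hox regions lay at least 5911 bp from any Dll1+ row, and 12 of the 13 were sole. Several members within 1 cluster are neighbours on the chromosome and are not independent of each other.

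Collagen genes and genes of fibroblasts and matrix, lists that share 4 of the members below, also had high Dll1- only shares. Collagens had 13 Dll1- only regions of 38 (34.2%, 21.2 to 50.1%) and 2 Dll1+ only. The Dll1- only collagens included Col7a1 (5.80 from 68 reads), which anchors the epithelial basement membrane, Col8a1 (5.28), Col1a2 (5.12 from 41 reads), a chain of the main fibrillar collagen, Col5a3 (4.88), Col15a1 (4.27 and 4.02), Col6a1 (3.87) and Col6a3 (3.17). The 2 Dll1+ only collagens were Col14a1 (5.27 from 25 reads), 663 bp from a Dll1- row, and Col11a2 (4.43 from 25 reads). In the list of fibroblast and matrix genes, 10 of 20 regions were Dll1- only (29.9 to 70.1%) and 0 were Dll1+ only. These 10 belonged to 9 genes. The first 6 by fold were Col1a2, the receptor gene Pdgfrb (4.88), Col5a1 (3.88), Col6a1, Postn (3.58) and Fbn1 (3.29), which encodes a microfibril protein. The other 10 regions of this list were shared. Their folds were higher in the Dll1- list at Col6a2, Fn1 (5.28 in Dll1+, 7.13 in Dll1-), Loxl1, Sparc and a Pdgfra region. They were higher in the Dll1+ list at Col5a1, Col5a2, Twist1 (5.33 in Dll1+, 4.5 in Dll1-) and another Pdgfra region. Genes of the Adam, Adamts and Mmp families, most of them matrix proteases, gave 11 Dll1- only regions of 47 (23.4%, 13.6 to 37.2%) and 1 Dll1+ only, at Mmp14 (2.90). Adamts4, which cleaves the proteoglycan aggrecan, had 4.42 fold from 141 reads.

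These matrix genes were set beside markers of the cell types the sort could hold. All 8 luminal markers (Krt8, Krt18, Krt19, Epcam, Cdh1, Elf5, Gata3 and Foxa1) had a promoter-proximal region in both lists. Of 5 defining fibroblast markers, Pdgfra had 2 shared regions. Their folds were 7.74 (Dll1+) and 9.12 (Dll1-) in the first, and 7.75 (Dll1+) and 7.15 (Dll1-) in the second. Pdgfra also had 2 accompanied Dll1- only regions (3.24 and 2.00 fold) that are among the 10 Dll1- only regions above. The markers Col1a1, Col3a1, Dcn and Lum had no promoter-proximal region in either list. In all, 9 of the 24 fibroblast and matrix genes had none. Of the immune markers, Ptprc, which encodes CD45, and Cd3e and Lyz2 had none, while Csf1r, the receptor of macrophage colony-stimulating factor, was a sole Dll1- only member (8.53 from 102 reads). The longer list of immune genes had 5 regions, of which 3 were shared, 1 was that of Csf1r and 1 was Dll1+ only, at Cd3g (3.80 from 17 reads), a sole member for a chain of the T cell receptor complex. Of 4 endothelial markers, Kdr was shared and Pecam1, Cdh5 and Tek had no region, and neither had the erythroid genes Epor and Hba-a1. Whether a different content of other cells contributed to the Dll1- only matrix promoters was not tested.

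Ion channels and neurotransmitter receptors, best known from nerve and muscle, were counted next. Ion channel genes gave 33 Dll1- only regions of 145 (22.8%, 16.7 to 30.2%) and 6 Dll1+ only (4.14%). After Kcnab2 the strongest were Cacng4 (7.30 from 66 reads), Kcnn1 (6.36), Scn8a (5.49), Trpc6 (5.49), Cacna1c (5.47) and Trpm8 (5.37). The 6 Dll1+ only ion channel members, Scn2a, Cacng6, Scn9a, Kcnip4, Trpm3 and Kcnip3, had 15 to 22 reads each. Neurotransmitter receptors gave 13 Dll1- only regions of 50 (15.9 to 39.5%), among them Htr4 (6.95), Adra2b (5.22), Grik3 (4.27), Chrna2 and Chrna7 (3.66 each). The Dll1+ only ones included the glycine receptor gene Glra2 (6.12 from 28 reads) and Htr4 (3.38). The 2 Htr4 members lay 143 bp apart. Olfactory receptors, which are seldom open outside the nose, had 16 regions for 1133 genes, of which 8 were Dll1- only and 0 were Dll1+ only. Cytochrome P450 genes gave 9 Dll1- only regions of 33 and 3 Dll1+ only.

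**Figure D2:**
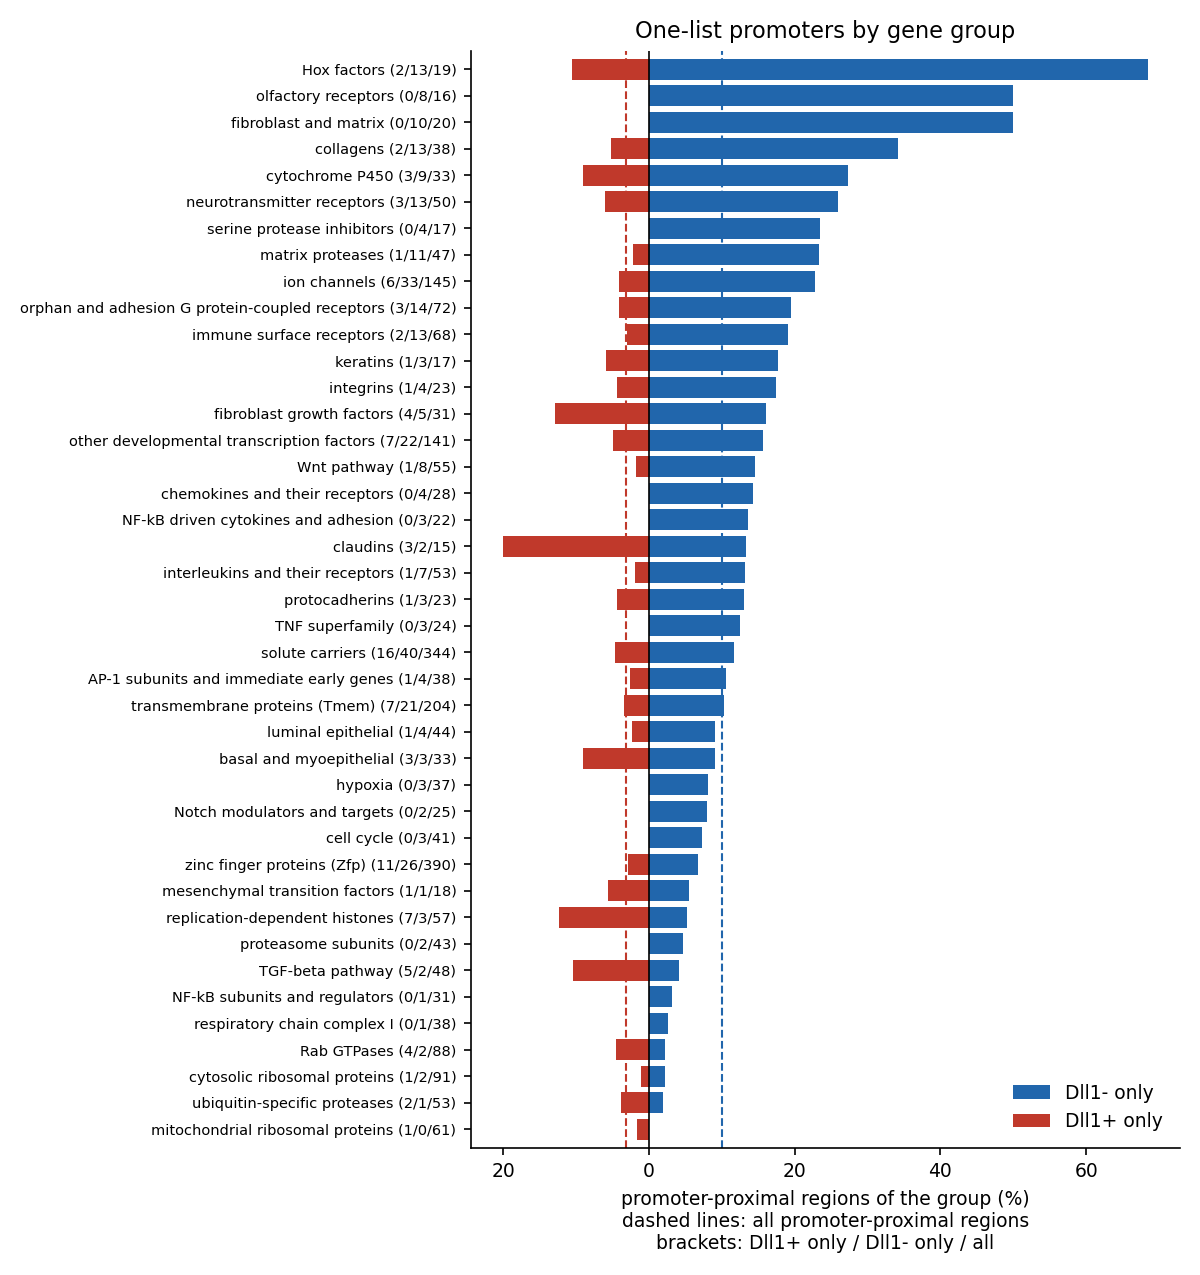
Share of the promoter-proximal regions of each gene group that were Dll1- only (blue, to the right) or Dll1+ only (red, to the left), for groups with at least 15 regions. Numbers in brackets are Dll1+ only, Dll1- only and all regions of the group, and dashed lines are the shares over all promoter-proximal regions (9.98% and 3.15%). Hox genes lie furthest to the right, and claudins, fibroblast growth factors and replication-dependent histones furthest to the left.

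Notch ligand and receptor genes had 5 members. The receptor genes Notch4 (5.46 from 68 reads), Notch1 (3.04 from 174 reads) and Notch3 (2.19 from 80 reads) had Dll1- only members, and the ligand genes Jag2 (2.85 from 20 reads) and Jag1 (2.63 from 82 reads) had Dll1+ only members. The other 6 of the 11 regions of ligands and receptors were shared. The intervals of the Dll1+ only (5.14 to 47.7%) and Dll1- only shares (9.75 to 56.6%) are wide, the latter holds 9.98%, and a difference between ligands and receptors was not tested. The Notch1 member covered its TSS, 992 bp from the nearest Dll1+ row, and the Jag2 and Jag1 members lay 275 and 105 bp from Dll1- rows. Both Jag1 and Notch3 had their TSS inside a row of the other list, and the Notch3 member lay 494 bp from the nearest Dll1+ row. At 25 regions of Notch modulators and targets, 2 were Dll1- only, at Mfng and at Hes5 (2.54 from 53 reads), a target gene and transcriptional repressor, and 23 were shared. Dll1 itself had a shared promoter, with folds of 5.72 (Dll1+) and 3.99 (Dll1-). All samples carried the Dll1-mCherry reporter, and the cells were sorted by it. Reads from any Dll1 promoter sequence in the reporter cannot be told apart from those of the gene itself.

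NF-kB genes were set beside all promoter-proximal regions, of which 14240 of 16393 were shared. Of 31 regions of NF-kB subunits and regulators, 30 were shared, Nfkb1 among them with folds of 5.84 (Dll1+) and 7.67 (Dll1-), and 1 was Dll1- only, at Tnip1 (3.86 from 36 reads), an inhibitor of the pathway. The interval of the Dll1- only share (0.572 to 16.2%) holds 9.98%. The 30 genes of NF-kB driven cytokines and adhesion molecules had 22 regions. Of these, 19 were shared and 3 were Dll1- only, at Cd40 (6.95 from 56 reads), Vcam1 (3.05 from 24 reads) and Ccl20 (2.81 from 22 reads), all sole, and 0 were Dll1+ only. The interval of the Dll1- only share (4.75 to 33.3%) holds that of all promoters.

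Wnt and TGF-beta genes are families of secreted signals with their receptors and nuclear effectors. Of 55 Wnt pathway regions, 8 were Dll1- only (14.5%, 7.56 to 26.2%), the first 6 by fold being the ligand genes Wnt5b (4.40), Wnt10a (4.05), Wnt4 (2.81) and Wnt7b (2.52), Znrf3 (3.29), a ubiquitin ligase that removes Wnt receptors, and Axin2 (3.14), a target and inhibitor of the pathway. The only Dll1+ only one was at Lef1 (4.62 from 23 reads), a nuclear partner of beta-catenin. Of 48 TGF-beta pathway regions, 5 were Dll1+ only (10.4%, 4.53 to 22.2%), at Inhbb (3.36), Acvr2b (2.90), Smad2 (2.74), Smad7 (2.43) and Tgfbr1 (2.24), and 2 were Dll1- only, at Smad3 (2.78) and Bmpr1b (2.59). All 7 were accompanied, and none had its midpoint within 250 bp of the TSS. Both intervals hold the shares over all promoters for Wnt, and that for the Dll1+ only TGF-beta regions begins above 3.15%.

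Claudins, the sealing proteins of tight junctions, were among the few groups with more Dll1+ only than Dll1- only regions. Of 15 regions, 3 were Dll1+ only, at Cldn2 (5.71 from 39 reads), Cldn22 (3.61 from 26 reads) and Cldn11 (2.41 from 23 reads), all sole, and 2 were Dll1- only, at Cldn14 (3.17) and Cldn7 (2.17). Replication-dependent histone genes, which are transcribed while DNA is copied, had 7 Dll1+ only regions of 57 (12.3%, 6.08 to 23.2%) and 3 Dll1- only. The Dll1+ only ones included Hist2h3c2 (4.46), Hist1h4n (3.59), Hist1h4b (3.42), Hist1h3f (3.34) and Hist1h1b (3.33). These genes are near-identical copies, so reads may have been split among them. Of 33 regions of basal and myoepithelial genes 27 were shared and 3 were called in each list alone (9.09%, 3.14 to 23.6%), an interval that holds the shares over all promoters. The 3 Dll1+ only regions were those of Tspan8, and the Dll1- only ones were at Procr (3.66), Krt15 (3.06) and Sox9 (1.98). Of 5 defining basal markers, Acta2 and Oxtr were shared, and Krt5, Krt14 and Trp63 had no promoter-proximal region in either list. Cell cycle genes had 3 Dll1- only regions of 41 (7.32%, 2.52 to 19.4%), at Ccnd2, E2f2 and Mcm7, and 0 Dll1+ only (0 to 8.57%). Both intervals hold the shares over all promoters. Housekeeping promoters were rarely members, with 3 of 91 regions of cytosolic ribosomal proteins and 1 of 61 of mitochondrial ribosomal proteins in 1 list only.

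**Figure D3:**
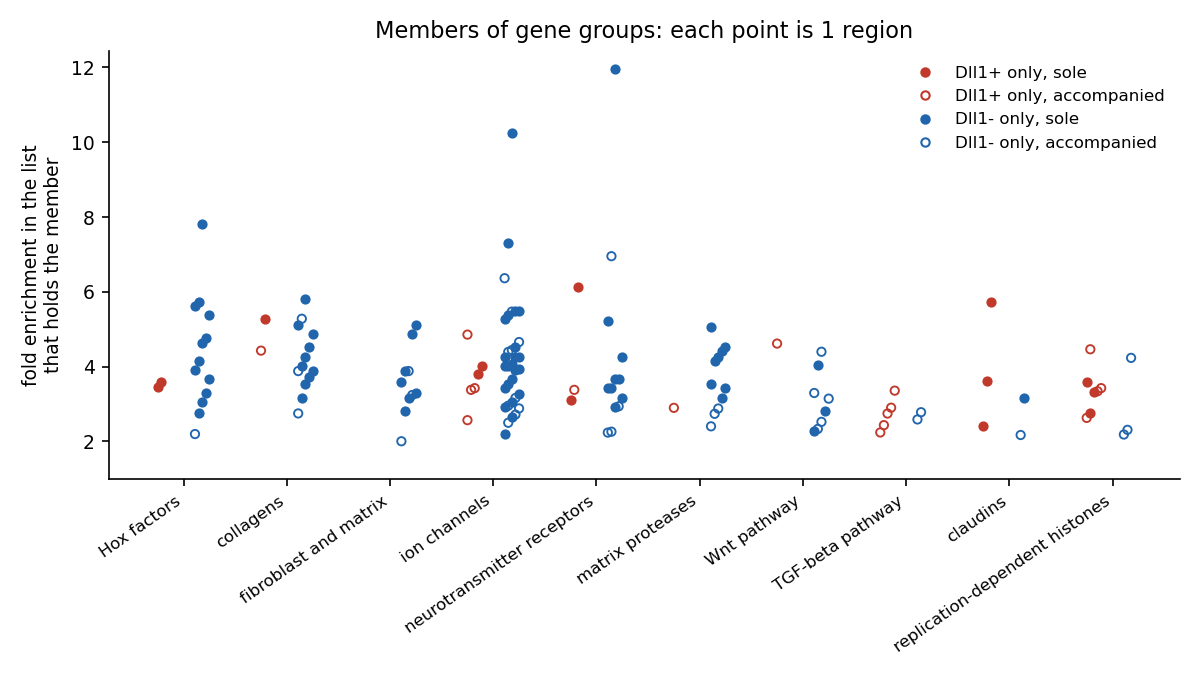
Fold enrichment (reads at the summit over local background, each plus 1) of every member in 10 gene groups, in the list that held it. Red points are Dll1+ only and blue points Dll1- only members, filled for sole and open for accompanied members, each point being 1 region. The Dll1- only members of the Hox and collagen groups reach 7.81 and 5.80 fold, and the TGF-beta members are all open points, none above 3.36 fold.

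Of the further genes that the study followed, Npy had a shared promoter (5.28 and 4.51 fold). Ntrk3, a neurotrophin receptor gene, had a shared promoter and an accompanied Dll1+ only region 94 bp downstream of a TSS (3.56 fold, 16 reads). Hepacam2 and Bglap2 had no promoter-proximal region. The luminal keratin gene Krt8 was shared, at 8.08 and 8.29 fold.

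The X chromosome held 5.42% of Dll1+ only members (28 of 517, 3.77 to 7.72%), 2.51% of Dll1- only members (41 of 1636, 1.85 to 3.38%) and 3.08% of shared promoters. Among sole members it held 14 of 130 Dll1+ only (10.8%, 6.52 to 17.3%) and 15 of 773 Dll1- only (1.94%, 1.18 to 3.18%). The 14 regions lay at Gm14698, Glra2, Cldn2, Magee2, Lpar4 (2 regions), Rhox11, Gjb1, Tmem35a, Pnck, Ptchd1, Cnksr2, Ndp and Sowahd, with 13 to 39 reads. These genes were named after their values had been seen.

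Base composition placed members of either kind apart from shared promoters. Windows reaching 100 bp to each side of the strongest summit had a median GC content of 54.7% in Dll1+ only and 56.7% in Dll1- only members, 64.2% in shared promoters and 59.7% in the 1695 shared promoters whose fold was below the median of all rows in both lists, called weaker shared promoters. A window was called CpG-rich when its GC content was over 50% and its CpG count over 0.6 of that expected from its C and G content. By this measure 29.8% of Dll1+ only (26.01 to 33.9%), 31.7% of Dll1- only (29.4 to 34.0%), 43.7% of weaker shared and 69.2% of all shared promoters were CpG-rich. The 2 kinds of members thus overlapped in CpG content, and sole Dll1- only members were CpG-rich somewhat more often (38.7%, 35.3 to 42.2%) than accompanied ones (25.4%, 22.6 to 28.4%).

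Of the consensus sequences searched, AP-1 differed most between the 2 kinds of promoters in percentage points. AP-1 factors are dimers of Fos and Jun proteins, which are induced by growth factors and by stress. TGACTCA or TGAGTCA was found in 8 of 517 Dll1+ only windows (1.55%, 0.786 to 3.02%) and in 259 of 1636 Dll1- only windows (15.8%, 14.1 to 17.7%). Weaker shared promoters held it in 6.25% of windows, all shared promoters in 5.07%, and windows of the same length centred on 41408 protein-coding TSS positions in 2.70%. Each of the 2 forms is the reverse complement of the other, so a search for both covers both strands. In 9 of the 259 windows the AP-1 match shared bases with a match to another consensus, and in 138 of the 259 windows (53.3%) the match nearest to the summit was centred within 25 bp of it.

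The Dll1+ only sites, printed for comparison, are 7 of the 8, and the last one lay on the chromosome for which no sequence is shown. Each is 27 bases of the plus strand with the heptamer in capitals.
Lao1 chr4:118961887-118961913: cttgcttggcTGAGTCAatagggccag
Scn2a chr2:65620065-65620091: aagtagtttgTGACTCAgaacttcata
Exo5 chr4:120925581-120925607: acagaagggtTGAGTCAcatgggcaca
Mydgf chr17:56182983-56183009: gttgggagggTGACTCAggggtggagt
Pdgfb chr15:80013812-80013838: gcccggcgccTGACTCAcgcgctgcaa
Bspry chr4:62480605-62480631: cccctccctgTGAGTCActgatccaag
Ppip5k2 chr1:97771352-97771378: tgtccaactgTGACTCAgaataaacca
Their folds ran from 5.04 at Lao1 to 2.14 at Ppip5k2, and the only sole member among them was Pdgfb, which encodes a chain of the platelet-derived growth factor PDGF-B.

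For Dll1- only, the 8 sites at the members of highest fold are given in the same form, leaving out the 14 members with AP-1 on that chromosome, Tcf4 and Csf1r among them.
Gpr35 chr1:92972069-92972095: tagggatgagTGAGTCAcgccagagga
Krtap2-4 chr11:99615165-99615191: acaatgcacaTGAGTCAccagcctgag
Hmga1b chr11:120762547-120762573: tgacctgctaTGACTCActggatcgtg
Nepn chr10:52392450-52392476: ctggtagagcTGACTCAttcatacaca
Adgra1 chr7:139833646-139833672: agctggactcTGACTCAcgcctctgta
Lpin3 chr2:160880522-160880548: aggaatgcagTGACTCAgctagtcact
Prkag3 chr1:74749502-74749528: tcctagggccTGAGTCAgagtccaaat
Slc17a8 chr10:89599534-89599560: cctggagattTGACTCActcgttttct
Their folds ran from 11.0 at Gpr35 to 8.17 at Slc17a8, a vesicular glutamate transporter, and 6 of these 8 members were sole. Either form of the heptamer was present in both sets, and the bases next to it differed from site to site. Further members that held the heptamer were Krt16 (8.05), Csf1r, Notch4, Col7a1, Pdgfrb, Col6a1 and, among luminal genes, Ehf (3.70) and Esr1 (3.06).

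The share with AP-1 varied among Dll1- only members. It was 23.2% (18.4 to 28.8%) for members of 5 fold or more, 15.8% between 3 and 5 fold and 12.7% (10.2 to 15.6%) below 3 fold. It was 13.4% (11.1 to 16.1%) within 250 bp of the TSS and 18.5% (15.7 to 21.6%) beyond 500 bp. CpG-rich members held it in 3.86% of windows and other members in 21.4% (19.1 to 23.9%). In Dll1+ only members that were not CpG-rich the share was 1.93% (0.937 to 3.93%), in shared promoters that were not CpG-rich 11.1%, and in such windows at all TSSs 3.98%. Sole members made up 37.1% (31.4 to 43.1%) of the Dll1- only members with AP-1 and 49.2% (46.5 to 51.8%) of those without. Regions of 1 list away from promoters held AP-1 more often, in 4.55% of Dll1+ only and 31.3% of Dll1- only regions.

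Other consensus sequences differed by fewer percentage points. The CTCF consensus, of the factor that anchors chromatin loops, was found in 0 of 517 Dll1+ only windows, which allows a share of up to 0.580% (3 counts of the total; the Wilson upper limit is 0.738%), and in 1.77% of Dll1- only windows (1.24 to 2.53%), and in 1.06% of weaker shared and 0.314% of TSS windows. SOX (ACAAAG or ACAATG) was found in 23.4% of Dll1+ only windows (20.0 to 27.2%) and 16.8% of Dll1- only windows (15.1 to 18.7%). FOX (TGTTTAC) was found in 4.45% (2.98 to 6.59%) and 2.32% (1.70 to 3.17%), and TEAD (GGAATG) in 14.1% (11.4 to 17.4%) and 10.2% (8.83 to 11.8%). The GC box (GGGCGG) was found in 22.8% and 31.7%, and ETS (CCGGAAG), frequent in shared promoters at 13.3%, in 2.13% and 1.89%. NF-kB matches were found in 2.90% (1.77 to 4.73%) and 4.40% (3.51 to 5.51%). Among TSS windows the shares were 15.7% for SOX, 1.69% for FOX, 7.77% for TEAD, 40.1% for the GC box, 9.10% for ETS and 3.29% for NF-kB. A match is a description of the sequence and does not show that a factor was bound.

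**Figure D4:**
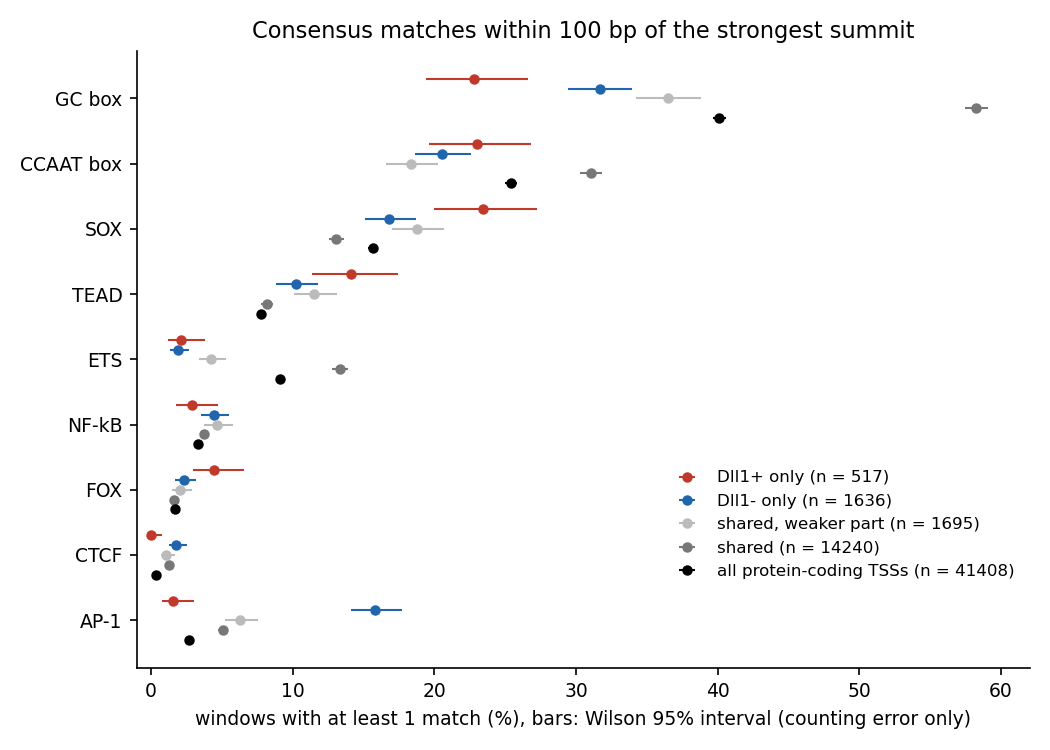
Percentage of windows (100 bp to each side of the strongest summit) that held at least 1 match to each of 9 consensus sequences, for Dll1+ only (red), Dll1- only (blue), weaker shared (light grey) and shared promoters (dark grey) and for all protein-coding TSS positions (black). Bars are 95% Wilson intervals. At AP-1 the Dll1- only point (15.8%) lies right of the other 4 and the Dll1+ only point (1.55%) is the lowest.

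Distal regions of 1 list, over 1000 and up to 50000 bp from a promoter and not promoter-proximal themselves, were compared next, since the rule for members did not use them. Around Dll1+ only promoters, 353 distal regions were Dll1+ only and 1044 were Dll1- only, a Dll1+ share of 25.3% (23.1 to 27.6%). Around Dll1- only promoters the numbers were 864 and 3449, a share of 20.0% (18.9 to 21.2%), and around shared promoters the share was 24.7% (24.2 to 25.1%). The interval around Dll1- only promoters thus lay below the other 2, which overlapped. Up to 20000 bp the Dll1+ only and Dll1- only intervals overlapped (20.3 to 27.5% and 18.2 to 22.0%). Around sole members the shares were 22.4% (17.4 to 28.3%) for Dll1+ only and 16.4% (14.8 to 18.2%) for Dll1- only. At least 1 Dll1- only distal region lay near 77.2% of Dll1+ only and 78.9% of Dll1- only promoters. Neighbouring promoters share distal regions, so these counts are not independent.

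The strength of a call was compared after the reads and backgrounds of the Dll1- list had been divided by 1.93 and the Poisson -log10 p recomputed. This matches the genome-wide backgrounds only, since the median reads per row (61 and 43) and per shared promoter (218 and 128) differ by smaller factors. All but 6 of the 1636 Dll1- only members still reached 2.00, the lowest value in the Dll1+ list, and merging the scaled list anew gave 1630 Dll1- only and 522 Dll1+ only promoters. At the 1st percentile of the Dll1+ list, a -log10 p of 2.87, 1572 Dll1- only members remained. Its 5th, 10th and 25th percentiles were reached by 1316, 1028 and 441 Dll1- only members and by 485, 422 and 215 Dll1+ only members. Of promoters with a -log10 p from 5 to 10, 29.5% in the Dll1+ list (26.5 to 32.7%) and 50.6% in the scaled Dll1- list (48.1 to 53.1%) were called in 1 list only. From 20 to 30 the shares were 2.10% and 4.05%, and above 50 none of 9575 and 9120 promoters was called in 1 list only. Over all members, 58.2% of Dll1+ only and 39.7% of Dll1- only summits lay on a local background more than 1.5 times the genome-wide one. The number of samples, 3 against 4, also differed between the lists and cannot be told apart from the groups.

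**Figure D5:**
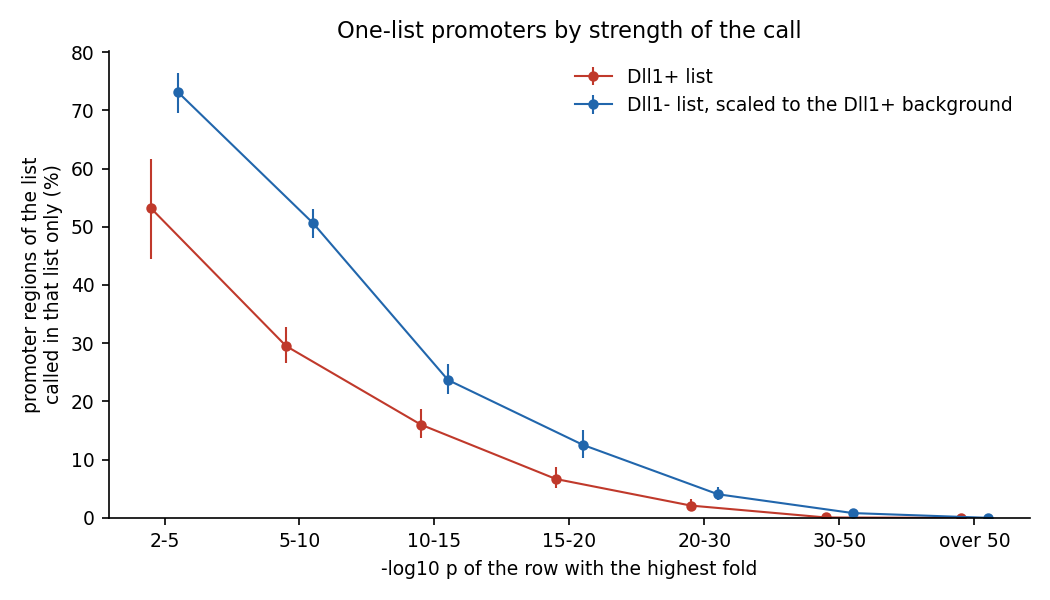
Share of the promoter regions of each list that were called in that list only, by the -log10 p of the row with the highest fold, for the Dll1+ list (red) and the Dll1- list scaled to the Dll1+ background (blue). Bars are 95% Wilson intervals covering counting error only. The blue points lie above the red ones up to a -log10 p of 50, and both fall to 0 beyond.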

How the data were processed

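The members and gene lists were chosen with earlier results of these data known. Each group's replicates were run as 1 batch through ENCODE's ATAC-seq workflow by the authors, who deposited a single optimal peak list per group on mm10 (GRCm38). The aligner, peak caller, thresholds and read filters are not given in the sources used here. The fold enrichment (a ratio) and −log10 p-value of each row are as deposited. Reads at each summit were solved from both by a Poisson model, for all 132872 Dll1+ rows and all but 1 of 148923 Dll1- rows, to within 0.02 reads plus 0.0005 per read. Reads carry no molecular identifiers, so intervals cover counting error only.

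TSSs came from protein-coding transcripts of the basic GENCODE annotation on GRCm38 (41451 positions). A member was named for the gene with the nearest TSS. Named genes were, per list, the 12 sole and 6 accompanied members of highest fold, up to 6 members per gene list, the genes the study followed and the regions at the distance limit. Members of gene families, X-linked members, genes with several members, companions at the smallest gaps and members with AP-1 were named after their values had been seen. With pooled lists there was no test between groups. Alternatives covered the promoter window, TSS set, merging, row filters, depth scaling and sequence window. Python 3.11.15, pandas 2.3.3 and samtools 1.23.1 were used, and the code was tested on simulated data. Some genes of these lists are not reported here.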

Additional observations from a re-analysis of the deposited data

How the results depend on the processing

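No paired analysis was possible because each group was given as a single pooled list, and for the same reason no sample could be left out. Of 56 alternative values, 33 stayed within the limits set for them and 23 moved. Dll1- only promoters outnumbered Dll1+ only ones in every alternative recount of members, by 2.47 to 9.27 times. This range leaves out the members kept at percentiles of the depth-scaled -log10 p, given above. Those were 1028 against 422 at the 10th percentile and 441 against 215 at the 25th. Dll1+ only and Dll1- only counts were 241 and 981 with promoters within 500 bp, 916 and 2980 within 2500 bp, 259 and 981 from 1000 bp upstream to 100 bp downstream, and 859 and 2651 with all transcripts of protein-coding genes, as a narrower or wider window or more TSSs implies. With only rows above the median fold of their own list they were 290 and 991, and with that filter on the member alone 26 and 241, since members are weak. Sole shares were 30.56% and 52.02% with companions within 500 bp, and 19.15% and 38.88% within 2500 bp. Around shared promoters the Dll1+ only share of distal regions was 25.29% up to 20000 bp and 24.17% up to 100000 bp, and the cause was not tested. The AP-1 share of Dll1- only members was 12.65% in windows of 50 bp to each side of the summit, 12.42% in sole and 18.89% in accompanied members, and the CpG-rich share was 38.68% in sole and 25.38% in accompanied ones. Judging companions by overlap, giving sequence features for accompanied members alone, and counting gene groups after depth scaling were chosen after seeing the data. Gene groups were counted after depth scaling at the lowest -log10 p only, which drops 6 Dll1- only members, and were not counted at stricter thresholds.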
